A study of Mus musculus with 8 samples.

Results

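The genes described here are 10 genes of the primitive endoderm, the blastocyst layer that gives rise to the visceral and parietal endoderm of the yolk sac. They were chosen by symbol from their known roles in that lineage, and all 10 were found among the 28431 genes of the count table. They are the transcription factor genes Gata4, Gata6, Sox17, Sox7 and Foxa2, the receptor gene Pdgfra, the adaptor gene Dab2, and the matrix genes Lama1, Lamb1 and Sparc. They were measured by stranded polyA RNA sequencing in mouse embryonic stem cells carrying a MERVL::EGFP reporter and grown on gelatin in serum, leukemia inhibitory factor and 2i (CHIR99021 and PD0325901). The negative control group was transfected on 2 consecutive days with 20 pmol of negative control siRNA. In the Chaf1a group, an siRNA to Chaf1a replaced 10 pmol of it. In the si308 and si309 groups the remaining 10 pmol were instead siRNAs made by dicing a fragment of the mDux locus, a different fragment for each (no dose is stated for 1 si309 library). Every group had 2 replicates, all cells carried the reporter, and neither mDux pool was given without the siRNA to Chaf1a.

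In the blastocyst, FGF4 from the epiblast acts through FGF receptors and the ERK kinases to raise GATA6 in the cells that become primitive endoderm, while NANOG restrains it in the epiblast. GATA6 is followed by PDGFRA, SOX17, GATA4 and SOX7, and the maturing cells polarise with the adaptor DAB2 and lay down a basement membrane rich in laminin and type IV collagen. The MEK inhibitor PD0325901 in 2i medium blocks the ERK branch of this signal and holds stem cells near the epiblast state. CHAF1A belongs to CAF-1, which deposits histones on newly copied DNA, while DUX switches on genes of the cleavage-stage embryo. The comparisons asked what Chaf1a depletion did to these genes, and what changed when mDux was lowered as well.

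Library totals ran from 26042851 to 42375685 gene counts, and levels are given as CPM, read counts per 1000000 of the TMM-scaled library total, with the SD of the 2 libraries after ±. The targeted Chaf1a RNA stood at 139 ± 0.65 CPM in negative control cells and at 29.6 ± 1.5, 34.6 ± 0.84 and 31.5 ± 3.1 CPM in the other groups (Chaf1a, si308, si309). mDux (listed as 4933403O03Rik) had 2 counts over both negative control libraries, 449 in the Chaf1a group, 5 with si308 and 14 with si309. The stem cell label was met by its markers: Pou5f1 stood at 894 ± 16 CPM and Nanog at 776 ± 38 CPM in the negative control. In bulk RNA, fewer cells of a type and less RNA per cell cannot be told apart.

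RefSeq start-site windows on GRCm38.p6, from 250 bases before a start to 50 after it, were found for 5 of the 10 genes (8 windows). A window each is shown for Dab2 and Pdgfra, Lamb1 and Foxa2, because Foxa2 fell with both pools while the other 3 stayed well above the negative control with either pool. For Dab2 and Foxa2, which had several windows, the only window with a match is the one shown. Capitals mark matches, on both strands, to the GATA letters AGATAA or TGATAA and to the SOX letters ACAAAG or ACAATG, and the FOX letters TGTTTAC were searched as well.
Dab2, chr15:6299539-6299838, plus strand: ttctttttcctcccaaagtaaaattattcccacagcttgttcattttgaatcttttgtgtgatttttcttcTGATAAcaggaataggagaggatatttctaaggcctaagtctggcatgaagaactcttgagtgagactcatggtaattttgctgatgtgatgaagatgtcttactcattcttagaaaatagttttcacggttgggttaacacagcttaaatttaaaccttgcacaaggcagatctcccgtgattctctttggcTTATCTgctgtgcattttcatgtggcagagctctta
Pdgfra, chr5:75152001-75152300, plus strand: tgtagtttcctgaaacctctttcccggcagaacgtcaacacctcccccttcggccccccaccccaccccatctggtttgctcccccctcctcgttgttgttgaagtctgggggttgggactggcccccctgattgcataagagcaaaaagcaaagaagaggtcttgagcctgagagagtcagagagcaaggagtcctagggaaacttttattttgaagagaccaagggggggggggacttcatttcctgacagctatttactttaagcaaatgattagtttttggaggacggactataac
Lamb1, chr12:31265043-31265342, plus strand: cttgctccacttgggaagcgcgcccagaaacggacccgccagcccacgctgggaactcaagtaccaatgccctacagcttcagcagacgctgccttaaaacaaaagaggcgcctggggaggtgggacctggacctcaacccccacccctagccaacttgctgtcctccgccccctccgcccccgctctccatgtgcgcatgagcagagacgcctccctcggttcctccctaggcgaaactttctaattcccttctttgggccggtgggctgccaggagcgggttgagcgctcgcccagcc
Foxa2, chr2:148045415-148045714, minus strand: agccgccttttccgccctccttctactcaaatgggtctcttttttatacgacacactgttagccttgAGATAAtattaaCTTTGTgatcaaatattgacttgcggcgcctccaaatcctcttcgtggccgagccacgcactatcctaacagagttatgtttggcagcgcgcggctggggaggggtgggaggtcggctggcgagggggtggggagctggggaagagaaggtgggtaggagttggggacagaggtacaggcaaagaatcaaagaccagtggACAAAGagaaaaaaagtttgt
The Dab2 window held 2 GATA matches and the Foxa2 window 1 GATA and 2 SOX matches, none of which overlap. The other 6 windows, including 2 of Foxa2, 1 of Dab2 and 1 of Sparc, held no match to any of these letters. Among these was the Foxa2 window at the upstream end of the gene model (chr2:148046920-148047219). The Foxa2 window shown lies inside the gene model. Among 32544 distinct windows of all genes, 18.5% held a GATA match, 28.4% a SOX match and 3.66% a FOX match.

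The first comparison set the Chaf1a group against the negative control, to see how CAF-1 depletion moved the lineage genes. The regulators Gata6, Sox17 and Foxa2, the receptor gene Pdgfra and the adaptor gene Dab2 rose 5.48 to 14.1-fold from very low levels, the matrix gene Lamb1 rose 2.22-fold, and Sox7 appeared from no counts. Sparc rose 1.22-fold. Lama1 fell, and Gata4 did not pass the test. By edgeR's quasi-likelihood test 8 of the 10 were raised and 1 lowered at a Benjamini-Hochberg adjusted p under 0.05, against 36.7% raised and 30.8% lowered of all 17977 genes tested (6597 and 5545, or 8128 and 3788 when scaled by library totals). That count is a description only: 4 of the 10 (Gata6, Sox17, Sox7 and Foxa2) lay over the filter's level of 0.31 CPM in both libraries only in groups with Chaf1a siRNA, so they entered the test through groups where they were high. Of the 6 genes over that level in both negative control libraries, 4 were raised, 1 was lowered and 1 was not called. With a 2-fold change required as well, 7 of the 10 were raised and 0 lowered, against 21.5% and 3.71% of all genes.

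**Figure D1:**
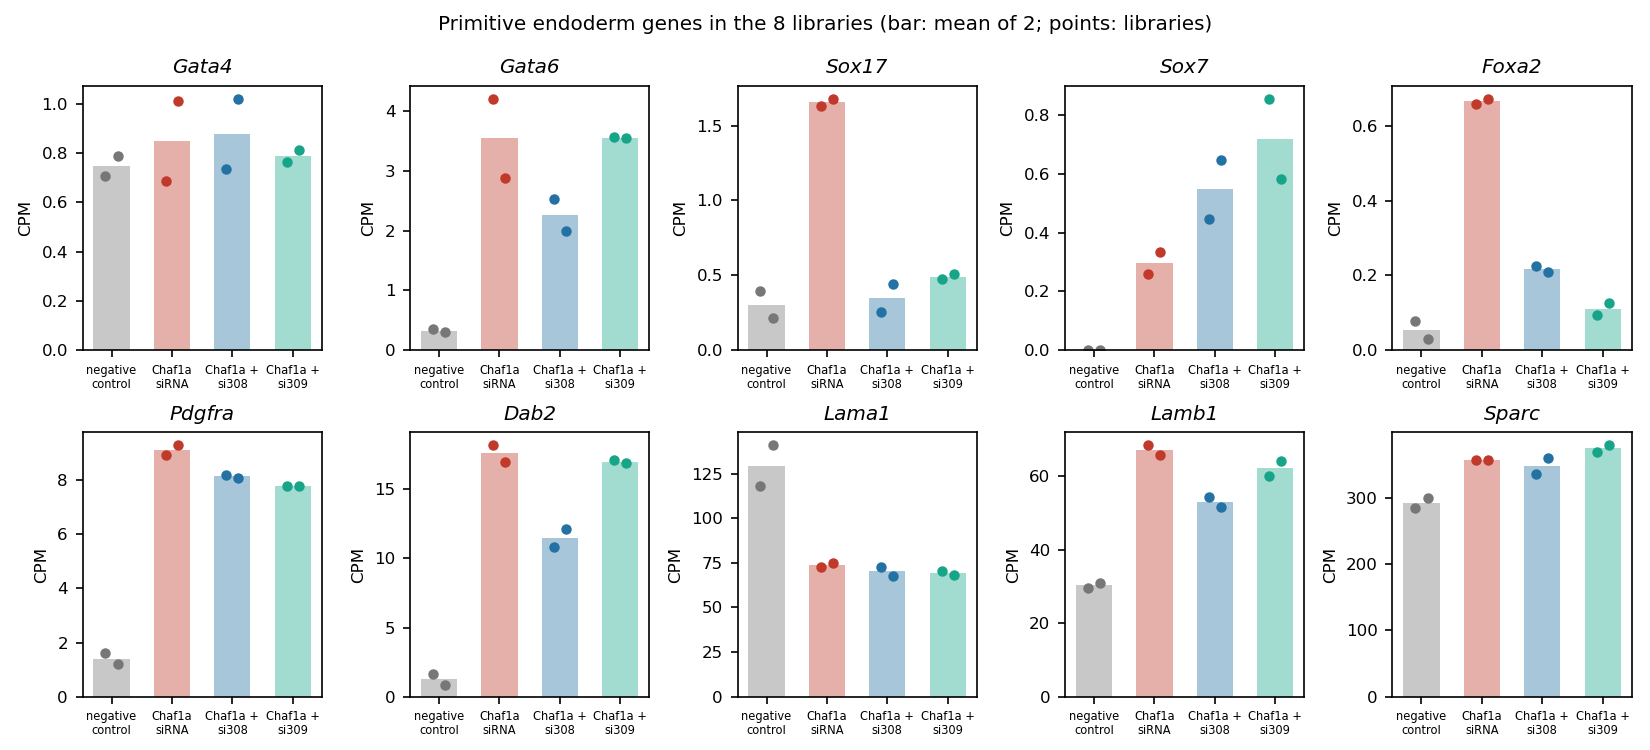
Level of each of the 10 genes in CPM (linear axes from 0, each panel with its own scale) in the 4 groups, with points for the 2 libraries and bars for their mean. Gata6, Pdgfra, Dab2 and Lamb1 stay above the negative control in all 3 groups with Chaf1a siRNA, Sox17 and Foxa2 are high in the Chaf1a group and lower with either pool, Lama1 is highest in the negative control, and Gata4 overlaps across groups.

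Gata6 encodes the zinc finger factor that starts the primitive endoderm programme (ENSMUSG00000005836, GRCm38 chromosome 18, 11052064 to 11085635). Its level was 0.353 and 0.303 CPM in the negative control libraries, 4.21 and 2.88 in the Chaf1a group, 2.53 and 1.99 with si308, and 3.56 and 3.55 with si309. All 6 libraries with Chaf1a siRNA lay above both negative controls, and the rise in the Chaf1a group was 10.8-fold (log2 change 3.45, SE 0.31, adjusted p = 2.7e-09). The transcript 1010001N08Rik overlaps Gata6 on the other strand and had 0 to 9 counts a library, and whether the counting used strand is not given in the sources used here. Gata4, the related factor that follows Gata6 in this lineage (chromosome 14, 63198922 to 63271692), was low in every group. It was at 0.706 and 0.788 CPM in the negative control, 0.687 and 1.01 in the Chaf1a group, 0.736 and 1.02 with si308, and 0.762 and 0.811 with si309. The libraries of the 4 groups were interleaved, and the change with Chaf1a siRNA was 0.15 with a 95% interval of -0.60 to 0.90 (adjusted p = 0.72). Its sign turned without Chaf1a replicate 1 (-0.13). A change within that interval was not detectable at 18 to 44 counts a library. Per kilobase of exon, Gata4 was 3.8 times Gata6 in the negative control, and Gata6 was 2.51 times Gata4 in the Chaf1a group.

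Sox17 and Sox7 belong to the SOXF group of HMG box factors, and both mark primitive endoderm as well as endothelium. Sox17 (chromosome 1, 4490931 to 4497354) stood at 0.392 and 0.212 CPM in the negative control, 1.63 and 1.68 in the Chaf1a group, 0.256 and 0.44 with si308, and 0.476 and 0.507 with si309. Both Chaf1a libraries lay above all 6 others, with a log2 change of 2.48 over the negative control (SE 0.40, adjusted p = 1.2e-05). Sox7 (chromosome 14, 63943673 to 63950732) had 0 counts in both negative control libraries, 9 and 9 in the Chaf1a group, 14 and 28 with si308, and 27 and 23 with si309. It was at least 2.85-fold higher in the Chaf1a group, at least 5.25-fold with si308 and at least 6.9-fold with si309, against a floor of 3 counts per library (adjusted p = 0.00042, 1.8e-05 and 4.9e-06). The authors' deposited table gives Sox7 log2 changes over the negative control of 0.62 (adjusted p = 0.057) for Chaf1a siRNA alone, 1.0 (0.0014) with si308 and 1.19 (9.4e-05) with si309. At an adjusted p under 0.05, Sox7 is thus not called there for Chaf1a siRNA alone. For Gata6, Sox17 and Foxa2 as well, the changes for Chaf1a siRNA in the authors' deposited table are smaller than those of the edgeR fit, at 2.19, 1.32 and 1.0. They are also smaller for Dab2 and Pdgfra (3.32 and 2.29), and slightly so for Lamb1 and Sparc (1.1 and 0.25). For Foxa2 with si308 the authors' deposited table gives 0.35 (adjusted p = 0.29), which is not called. Foxa2, a forkhead factor of visceral endoderm and of definitive endoderm (chromosome 2, 148042877 to 148046969), was the scarcest besides Sox7 in the control. It had 2 and 1 counts in the negative control, 23 and 18 in the Chaf1a group, 7 and 9 with si308, and 3 and 5 with si309. The count ratio of the Chaf1a group to the negative control was 13, with an exact 95% counting interval of 4.13 to 65.4 (log2 change 3.60, SE 0.66, adjusted p = 5.9e-05).

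Pdgfra encodes the receptor for PDGF-A that keeps primitive endoderm cells alive in the blastocyst (chromosome 5, 75152292 to 75198215). Its level was 1.61 and 1.21 CPM in the negative control, 8.94 and 9.3 in the Chaf1a group, 8.19 and 8.1 with si308, and 7.78 and 7.78 with si309. The groups with Chaf1a siRNA were well apart from the control, and the Chaf1a group was 6.47-fold higher (log2 change 2.71, SE 0.17, adjusted p = 6.6e-12). Pdgfa, the gene of its ligand, stood at 70.3 ± 2.4 CPM in the negative control and 76.8 ± 1.2 CPM in the Chaf1a group (log2 change 0.13, adjusted p = 0.092, or 0.30 and 0.00052 with library totals). Pdgfc, a second ligand gene for the receptor, rose from 23.3 ± 0.97 to 56.6 ± 2.6 CPM (adjusted p = 3.8e-13). Dab2 encodes an endocytic adaptor needed for the endoderm to sort to the surface (chromosome 15, 6299788 to 6440712). It had the highest fold of the 10 among those with counts over the filter's level in the negative control. It stood at 1.61 and 0.879 CPM in the negative control, 18.2 and 17 in the Chaf1a group, 10.8 and 12.1 with si308, and 17.1 and 16.9 with si309. The si308 libraries lay between the control and the other depleted groups. The rise in the Chaf1a group was 14.1-fold (log2 change 3.87, SE 0.17, adjusted p = 2.2e-14). The endocytic receptors that DAB2 serves in visceral endoderm rose too. Lrp2, the megalin gene, rose from 35.2 ± 1 to 108 ± 1.5 CPM (adjusted p = 1.2e-15). Amn, the amnionless gene, rose from 0.431 ± 0.22 to 12.5 ± 0.45 CPM (adjusted p = 4.8e-14), and Cubn, the cubilin gene, from 0.472 ± 0.11 to 2.72 ± 0.33 CPM (adjusted p = 2.1e-07). Against the Chaf1a group, Lrp2 was lower with si308 and si309 (log2 change -0.56 and -0.27, adjusted p = 1.1e-07 and 0.0018). Cubn was called lower with si308 only (-0.89, adjusted p = 0.01), and Amn with neither pool (adjusted p = 0.14 and 0.98).

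The matrix genes were at far higher levels in the negative control than the regulators. Lamb1 encodes the beta 1 chain of laminin-111 (chromosome 12, 31265234 to 31329644). It stood at 29.5 and 31 CPM in the negative control, 68.4 and 65.7 in the Chaf1a group, 54.2 and 51.5 with si308, and 60.1 and 64.1 with si309. No library of a group with Chaf1a siRNA reached down to the control (log2 change 1.15 in the Chaf1a group, SE 0.07, adjusted p = 2e-12). Lama1, the alpha 1 chain of the same trimer (chromosome 17, 67697259 to 67822647), went the other way. It stood at 118 and 141 CPM in the negative control, 72.9 and 74.7 in the Chaf1a group, 72.8 and 67.7 with si308, and 70.2 and 68.1 with si309. Its fall was 1.76-fold (log2 change -0.81, SE 0.07, adjusted p = 6.4e-10), against a log2 median of 0.05 over all genes. Scaling by library totals moved that median to 0.22 and the Lama1 change to -0.65 (adjusted p = 7.3e-08). Sparc, a secreted collagen-binding glycoprotein abundant in parietal endoderm (chromosome 11, 55394500 to 55423183), was the highest of the 10 per length in every group. It stood at 284 and 300.0 CPM in the negative control, 357 and 356 in the Chaf1a group, 335 and 359 with si308, and 369 and 379 with si309. Its rise of 1.22-fold was small beside the others (log2 change 0.29, SE 0.05, adjusted p = 1.2e-05).

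The third chain of laminin-111 is encoded by Lamc1, which stood at 840 ± 16 CPM in the negative control and 783 ± 22 CPM in the Chaf1a group. Its log2 change was -0.10 (adjusted p = 0.038) and became 0.06 with library totals (adjusted p = 0.18), so its direction depended on scaling. On the scale of CPM per kilobase of exon, Lamc1 was at 102 ± 1.9, Lama1 at 13.4 ± 1.6 and Lamb1 at 3.05 ± 0.11 in the negative control, and at 94.7 ± 2.6, 7.63 ± 0.13 and 6.76 ± 0.19 in the Chaf1a group. The level of Lama1 per length was thus 4.39 times that of Lamb1 in the negative control and 1.13 times in the Chaf1a group, 1.36 times with si308 and 1.14 times with si309. Among the other alpha chains, Lama5, of laminin-511, rose from 302 ± 24 to 599 ± 12 CPM (log2 change 0.99, adjusted p = 2.5e-13) and Lama3 from 20.6 ± 2.1 to 63.7 ± 0.14 CPM (log2 change 1.63, adjusted p = 2.9e-14).

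**Figure D2:**
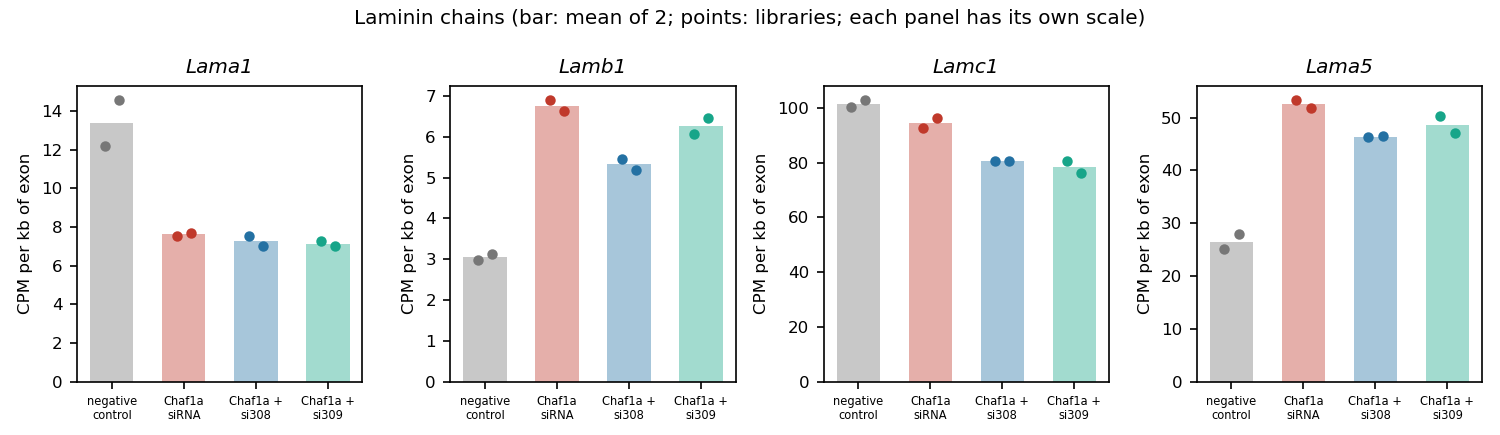
Level of the laminin chain genes Lama1, Lamb1, Lamc1 and Lama5 in CPM per kilobase of exon (linear axes from 0, own scale per panel), with points for the 2 libraries of each group and bars for their mean. Lama1 is lower and Lamb1 and Lama5 are higher in the groups with Chaf1a siRNA than in the negative control, and Lamc1 is the highest of the 4 in every group.

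Ordered by level per kilobase, the negative control had Sparc at 77.2 ± 3, then Lama1 and Lamb1. Below these came Gata4 at 0.191 ± 0.015, Dab2 at 0.169 ± 0.07, Pdgfra at 0.141 ± 0.028, Sox17 at 0.0633 ± 0.027, Gata6 at 0.0504 ± 0.0055, Foxa2 at 0.023 ± 0.014 and Sox7 at 0. Dab2 did not differ beyond its spread from Gata4 above it or Pdgfra below it, nor did Sox17 from Gata6. In the Chaf1a group the order was Sparc at 94.2 ± 0.12, then Lama1 and Lamb1. These were followed by Dab2 at 2.39 ± 0.12, Pdgfra at 0.91 ± 0.026, Gata6 at 0.545 ± 0.14, Sox17 at 0.347 ± 0.0073, Foxa2 at 0.281 ± 0.0042, Gata4 at 0.217 ± 0.058 and Sox7 at 0.09 ± 0.017. Gata4 thus stood above the other 4 regulators in the control and above only Sox7 in the Chaf1a group. With si308 the 5 regulators ran from Gata6 at 0.347 ± 0.059 through Gata4 at 0.225 ± 0.051, Sox7 at 0.166 ± 0.043 and Foxa2 at 0.0912 ± 0.0047 to Sox17 at 0.0729 ± 0.027. With si309 they ran from Gata6 at 0.546 ± 0.00081 through Sox7 at 0.218 ± 0.059, Gata4 at 0.201 ± 0.0089 and Sox17 at 0.103 ± 0.0045 to Foxa2 at 0.0468 ± 0.0094. Gata4 and Sox7 did not differ beyond their spread with either pool, nor did Foxa2 and Sox17 with si308. The other 5 genes stood in the same order in all 3 groups with Chaf1a siRNA.

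Each pool with Chaf1a siRNA was then set against the Chaf1a group, to see which levels moved when mDux was lowered. Sox17 and Foxa2 fell with both pools, while Gata6, Dab2 and Lamb1 fell with si308 alone among the 2 tests, and Pdgfra, Sox7, Gata4, Lama1 and Sparc were not called with either. With si308, 5 of the 10 were lowered and 0 raised, against 12.0% lowered and 9.91% raised of all genes. With si309, 2 were lowered and 0 raised, against 7.06% and 3.76%. These counts too are descriptions only, since Foxa2 lay over the filter's level only in the Chaf1a group, and Sox17 lay over it in both libraries only in the Chaf1a and si309 groups. Sox7 lay over it in both libraries only in the si308 and si309 groups. Of the 6 genes over that level in both negative control libraries, 2 (Dab2 and Lamb1) were lowered with si308 and 0 with si309. With a 2-fold change required as well, 2 were lowered with si308 (4.17% of all genes) and 2 with si309 (3.03%), and 0 were raised (0.462% and 0.161%). Sox7 with si309 had an edgeR p of 0.013 before adjustment and 0.089 after it, so it was not called. Both comparisons, and that of Chaf1a siRNA with the negative control, share the Chaf1a libraries.

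Sox17 was 4.76-fold lower with si308 than in the Chaf1a group (log2 change -2.19, SE 0.37, adjusted p = 0.00013) and 3.37-fold lower with si309 (-1.74, SE 0.35, adjusted p = 0.0017). Sox17 lay over the filter's level in both libraries only in the Chaf1a and si309 groups, so these p-values are descriptions only. Against the negative control it was then not called, with log2 differences of 0.29 (95% interval -0.73 to 1.31, adjusted p = 0.63) and 0.74 (-0.23 to 1.72, adjusted p = 0.17). The sign of the first turned without negative control replicate 1 (-0.13) or si308 replicate 1 (-0.20). Foxa2 was 3.08-fold lower with si308 (-1.61, SE 0.47, adjusted p = 0.017) and 6-fold lower with si309 (-2.52, SE 0.54, adjusted p = 0.0028). These Foxa2 calls rest on 3 to 23 counts a library. Foxa2 lay over the filter's level only in the Chaf1a group, so it entered the test through the group where it was high. Its p-values against that group are thus descriptions only. With si308 the call was lost without either Chaf1a replicate or either si308 replicate (adjusted p = 0.091 to 0.12). With si309 it was lost without either si309 replicate (0.054 and 0.055), and DESeq2 made neither call (0.25 and 0.083). Over the negative control the count ratio of Foxa2 was 4.19 with si308 (exact 95% counting interval 1.2 to 22.4, adjusted p = 0.035). For si309 the ratio was 2.2 (0.528 to 12.9, adjusted p = 0.31). The call for si308 was lost whichever single library was left out, with adjusted p from 0.052 to 0.25, and also without the filter (0.061) and with DESeq2 (0.16).

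The other genes kept most of their rise. Dab2 was 1.54-fold lower with si308 (-0.62, SE 0.12, adjusted p = 0.00049) and stayed 9.18-fold over the negative control (adjusted p = 1.4e-12). With si309 its difference from the Chaf1a group was -0.05 (95% interval -0.29 to 0.18, adjusted p = 0.83). Gata6 was 1.57-fold lower with si308 (-0.68, SE 0.21, adjusted p = 0.024). The call was lost without Chaf1a replicate 0 (-0.36, adjusted p = 0.41), without si308 replicate 1 (-0.51, adjusted p = 0.2) or with DESeq2 (adjusted p = 0.16). With si309 its difference was -0.01 (-0.43 to 0.41), or 0.30 without Chaf1a replicate 0, and it remained 6.88-fold over the negative control with si308 and 10.8-fold with si309. For Pdgfra the si308 group differed from the Chaf1a group by -0.16 (-0.42 to 0.10, adjusted p = 0.4) and the si309 group by -0.23 (-0.49 to 0.04, adjusted p = 0.29), and its level was 5.77 and 5.52-fold that of the negative control. Lamb1 was 1.27-fold lower with si308 (-0.35, SE 0.06, adjusted p = 0.00031) and not called with si309 (-0.11, adjusted p = 0.29).

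Sox7 had the opposite sign to Sox17. Its level was 0.297 ± 0.056 CPM in the Chaf1a group, 0.548 ± 0.14 with si308 and 0.72 ± 0.19 with si309, and both pool groups lay wholly above the Chaf1a group. The log2 difference from the Chaf1a group was 0.92 for si308 (95% interval -0.07 to 1.91, adjusted p = 0.19). For si309 it was 1.27 (0.30 to 2.24, adjusted p = 0.089), so neither passed the test at 9 to 28 counts a library. Sox7 lay over the filter's level in both libraries only with the pools, so it entered the test through groups where it was high. Per kilobase, Sox17 was 3.86 times Sox7 in the Chaf1a group, and Sox7 was 2.28 times Sox17 with si308 and 2.12 times with si309. Gata4, Lama1 and Sparc differed from the Chaf1a group by -0.10 to 0.09 on the log2 scale with either pool, with adjusted p from 0.39 to 0.92. The sign for Gata4 with each pool, and for Sparc with si308, depended on which library was left out. With both pools averaged, a comparison chosen after seeing the data, 0 of the 10 were higher and 4 (Sox17, Foxa2, Dab2 and Lamb1) lower than in the Chaf1a group, against 8.66% and 11.6% of all genes. The limit on Foxa2, Sox17 and Sox7 from the filter holds for this count too, which is a description only.

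**Figure D3:**
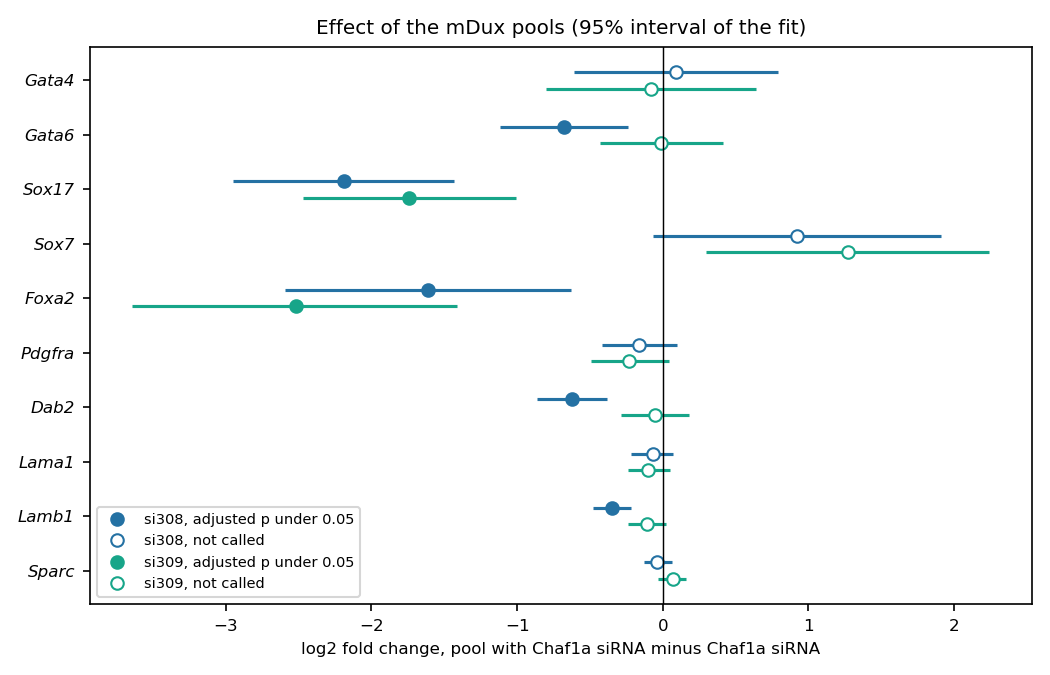
Log2 fold change of each gene between a pool with Chaf1a siRNA and the Chaf1a group (2 libraries each), as points with 95% intervals from the fit; filled points passed an adjusted p under 0.05. Sox17 and Foxa2 lie below 0 with both pools, Gata6, Dab2 and Lamb1 are called with si308 only, and Sox7 lies above 0 with both without passing the test.

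The pools were compared directly with each other, since a call with 1 pool and not with the other does not show a difference. Dab2 was 1.49-fold higher with si309 than with si308 (log2 difference 0.57, SE 0.12, adjusted p = 0.0061) and Lamb1 1.17-fold higher (0.23, SE 0.06, adjusted p = 0.038), against 2.39% of all genes higher and 1.27% lower. The Dab2 call was lost without si308 replicate 0 or either si309 replicate (adjusted p = 0.063 to 0.072), and the Lamb1 call whichever of the 6 libraries with Chaf1a siRNA was left out (0.055 to 0.38). For Gata6 the difference was 0.67 (0.23 to 1.10, adjusted p = 0.085, or 0.03 without the filter on low counts). None of the 10 was lower with si309 at an adjusted p under 0.05. Chaf1a RNA stood at 34.6 ± 0.84 CPM in the si308 group, against 31.5 ± 3.1 CPM in the si309 group. The 17 two-cell-like markers in the table summed to 1.98 to 2.66 CPM with si308 and 37.6 to 39.4 CPM with si309, and the part of either in these differences was not tested. Against the negative control 7 of the 10 were raised and 1 lowered with si308 (33.1% and 28.5% of all genes), and 6 raised and 1 lowered with si309 (35.0% and 30.3%). Requiring a 2-fold change left 0 higher with si309 than with si308 (0.64% of all genes higher, 0.0501% lower). Against the negative control it left 5 raised and 0 lowered with either pool (18.5% and 2.29% of all genes with si308, 20.3% and 3.18% with si309). The counts against the negative control are descriptions only, since they include Gata6 and Sox7, and with si308 Foxa2. None of those lay over the filter's level in both negative control libraries. Of the genes that did, Pdgfra, Dab2, Lamb1 and Sparc were raised with either pool, Lama1 was lowered and Gata4 was not called.

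Other genes of the lineage and its signals were read from lists, with counts in the comparison of Chaf1a siRNA with the negative control. Of 16 visceral endoderm genes tested, 12 were raised and 1 lowered, or 12 and 0 with library totals (median log2 change 2.05, beside 0.05 over all genes, of which 36.7% were raised and 30.8% lowered). Apob, an apolipoprotein gene of visceral endoderm, rose from 0.476 ± 0.16 to 11.9 ± 1.5 CPM (adjusted p = 1.2e-13). Dkk1, which encodes a secreted WNT antagonist, rose from 0.139 ± 0.025 to 9.5 ± 0.31 CPM (adjusted p = 1e-13). With the pools, 5 of the 16 were lowered and 1 raised by si308 (median -0.14) and 4 lowered and 0 raised by si309 (median 0.02). Over all genes the median was 0.01 with either, with 12.0% lowered and 9.91% raised by si308 and 7.06% and 3.76% by si309. The gene raised by si308 was Apom, an apolipoprotein gene named after its values were seen, at 6.98 ± 0.41 CPM in the Chaf1a group and 12.4 ± 0.29 CPM (adjusted p = 2e-05). Among those lowered, Apob fell to 4.48 ± 0.73 and 5.17 ± 0.18 CPM with si308 and si309 (adjusted p = 3.7e-07 and 4.2e-06), and Dkk1 to 2.92 ± 0.65 and 4.41 ± 0.54 CPM (adjusted p = 7.9e-08 and 3.1e-05). Of 16 genes of parietal endoderm and extraembryonic endoderm cell lines, 11 were raised and 2 lowered (median 1.09; 12 and 0 with library totals). Plat, the tissue plasminogen activator gene, rose from 0.782 ± 0.051 to 13.3 ± 0.56 CPM (adjusted p = 1.1e-14) and Snai1, a repressor of E-cadherin, from 0.71 ± 0.28 to 7.85 ± 0.21 CPM (adjusted p = 1e-11). Of 29 basement membrane genes 23 were raised and 4 lowered (median 0.99; 23 and 1 with library totals), with the collagen chaperone gene Serpinh1 going from 66.1 ± 1 to 166 ± 1 CPM (adjusted p = 2.1e-14). Of 15 laminin and collagen receptor genes 10 were raised and 2 lowered (median 0.48; 13 and 0 with library totals). The laminin receptor gene Itga7 rose from 1.6 ± 0.12 to 15.8 ± 1.3 CPM (adjusted p = 2.1e-13). As with the members, genes low in the negative control entered these counts through groups where they were high.

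Genes of the FGF list were called in both directions, as were those of the whole table. Fgf4, the ligand, fell from 280 ± 2 to 88 ± 3.3 CPM (adjusted p = 9.8e-16). Of 29 FGF and ERK genes 15 were raised and 5 lowered, against 36.7% and 30.8% of all genes. The median of the list was 0.36, and with library totals 15 were raised and 3 lowered. The receptor gene Fgfr1 rose from 116 ± 0.11 to 192 ± 0.042 CPM (adjusted p = 1.7e-11). The ERK-induced feedback gene Spry4 rose from 2.71 ± 0.66 to 19.1 ± 1.4 CPM (adjusted p = 8e-12). With the pools, 10 of the 29 were lowered and 2 raised by si308 (median -0.20, against 12.0% and 9.91% of all genes) and 7 lowered and 1 raised by si309 (median -0.11, against 7.06% and 3.76%). Spry4 fell to 9.96 ± 2.9 CPM with si308 and 9.74 ± 0.0099 CPM with si309 (adjusted p = 5.9e-05 and 5.2e-05). Of the 4 PDGF genes tested 2 were raised and 0 lowered (median 0.39; 3 and 0 with library totals), Pdgfc and Pdgfb (the latter 4.57 ± 0.033 to 7.12 ± 0.46 CPM, adjusted p = 0.00038). Nanog, the epiblast factor that restrains Gata6, fell from 776 ± 38 to 512 ± 25 CPM (adjusted p = 1.5e-09). In all, 11 of 17 naive pluripotency markers were lowered and 4 raised (median -0.28; with library totals 9 and 6, median -0.11).

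Several of the 10 genes are also used outside the primitive endoderm, and markers of other cell types moved in the same comparison. Over all genes, 36.7% were raised and 30.8% lowered. Fibroblast and mesenchyme markers were raised in 13 of 14 tested cases and lowered in 0 (median 3.62). The summed level of the 18 in the table was 49.3 to 51.8 CPM in the negative control and 227 to 228 CPM in the Chaf1a group. It was 162 to 169 CPM with si308 and 191 to 197 CPM with si309, with 6 of the 18 at 0 in the negative control and 1 in the Chaf1a group. Endothelial markers were raised in 7 of 9 cases and lowered in 1 (median 2.38). Tek, an angiopoietin receptor gene, rose from 9.68 ± 0.58 to 39.5 ± 2.1 CPM (adjusted p = 1.2e-14). The 10 in the table summed to 237 to 238 CPM in the negative control and 216 CPM in the Chaf1a group. Most of the latter sum was Pecam1, at 159 CPM. Mesendoderm and definitive endoderm markers were raised in 10 of 13 cases and lowered in 2 (median 1.56), with sums of 477 to 481 and 495 to 500 CPM. Most of the latter sum was Trh, Kit and Nodal, at 195, 169 and 96.4 CPM. Trophectoderm markers were raised in 9 of 15 cases and lowered in 5 (median 1.16), with sums of 164 to 170 and 171 to 172 CPM. The 16 two-cell-like markers tested were all raised, with sums of 1.85 to 2.39 and 1420 to 1490 CPM. The part of such cells in the changes of the 10 genes was not tested.

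**Figure D4:**
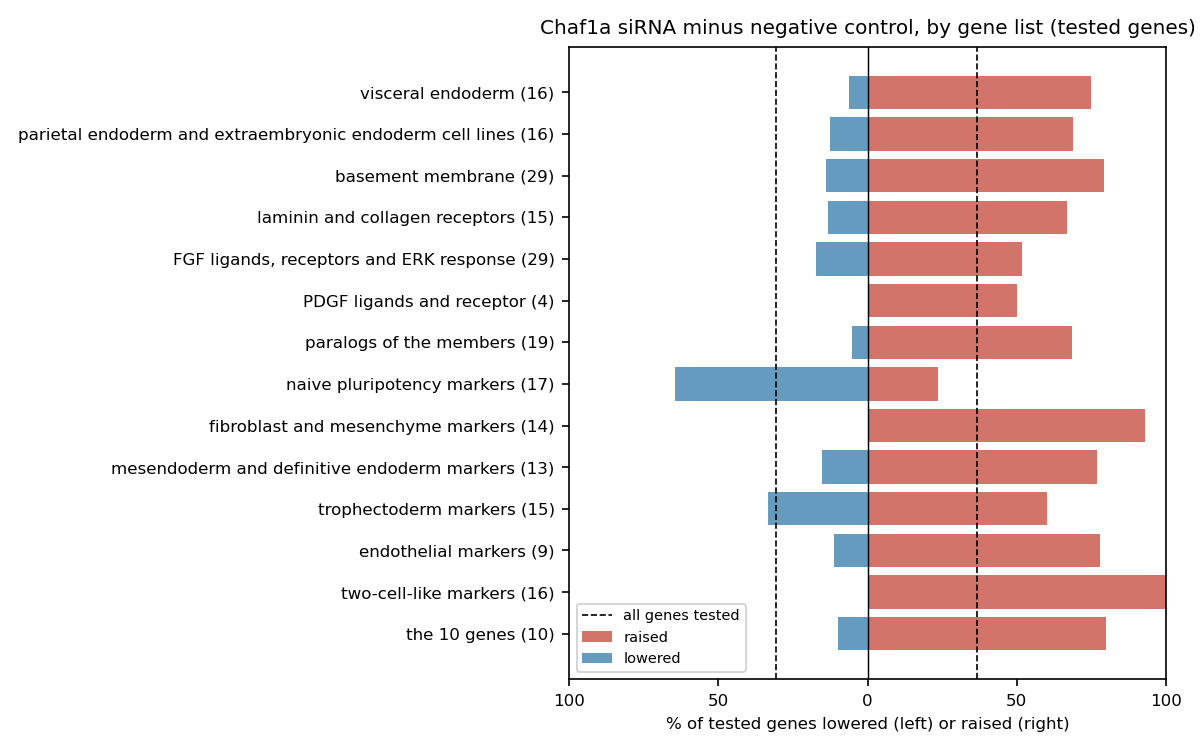
Percentage of tested genes raised (right) or lowered (left) at an adjusted p under 0.05 by Chaf1a siRNA, for the 10 genes and 13 other lists, with the number tested in brackets and dashed lines at 36.7% and 30.8% for all genes. The lineage lists and the lists of other cell types, fibroblast and two-cell-like markers among them, lie past the raised line. Naive pluripotency markers lie past the lowered line, and trophectoderm markers (5 of 15 lowered) lie close to it.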

How the data were processed

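Counts per Ensembl gene in 8 libraries (125-base paired reads) were used as the authors deposited them. Per the submitters' processing notes, reads were aligned with Novoalign 2.8 to mm10 and DESeq2 was used; the read counter, its annotation, its strand setting and the DESeq2 version are not given in the sources used here. The deposited table also gives regularised log2 values, log2 fold changes against the negative control and adjusted p-values. The 8 regularised log2 columns were not used. Count columns numbered 0 and 1 gave a group but not which of its samples.

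Genes passing filterByExpr (17977) were fitted in edgeR 4.0.16 (R 4.3.3) with TMM factors and a mean for each group, leaving 4 residual degrees of freedom. Quasi-likelihood p-values were adjusted over all these genes (Benjamini-Hochberg). The labels call the replicates biological but do not say whether they came from separate cultures, so p-values may not cover the spread between cultures. They rest on a spread pooled over the 4 groups and drawn towards that of other genes (median 17.1 prior degrees of freedom). The chi-square per degree of freedom between the 2 libraries was 5.5 in the negative control, 2.88 in the Chaf1a group, 4.7 with si308 and 2.87 with si309. A pooled spread does not follow such differences. Intervals around log2 changes are 95% t intervals with 21.1 degrees of freedom. Counting intervals and the floor of 3 counts per library cover counting error only. Gene positions and exon lengths came from GENCODE M21 (GRCm38), which held 27843 of the IDs. A symbol at 2 IDs (Gm6763) was left out of its list. The fit was tested on simulated counts in which every gene had the same spread beyond counting error. That test cannot show how the fit performs where genes differ in spread.

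The 10 genes, the 13 other lists and the tests were chosen with earlier results of these data known. Named genes are the 10, Chaf1a and mDux, genes among the 4 of lowest p in each list for Chaf1a siRNA, Lamc1 and Pdgfa. Apom, Cubn, Fgfr1, Nanog and Pou5f1 were added after their values were seen. Alternatives were other scalings and filters, DESeq2 1.42.0, a robust fit, a replicate block, fits of 2 groups only and leaving out each library.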

Additional observations from a re-analysis of the deposited data

Results flagged for a closer look

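Dab2 and Lamb1 differed between the 2 mDux pools, by the test of the difference itself, but both calls depended on single libraries. Dab2 was higher with si309 than with si308 by 0.57 on the log2 scale (17 ± 0.18 against 11.4 ± 0.95 CPM, adjusted p = 0.0061), in 2 of 2 libraries. Lamb1 was higher by 0.23 (62.1 ± 2.8 against 52.9 ± 1.9 CPM, adjusted p = 0.038), in 2 of 2 libraries. The Dab2 call was lost without si308 replicate 0 or either si309 replicate (adjusted p = 0.063 to 0.072), and the Lamb1 call whichever of the 6 libraries with Chaf1a siRNA was left out (0.055 to 0.38).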

How the results depend on the processing

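No called value of the 10 genes changed direction, but 14 recomputed values that were not called did, 13 of them on leaving out a replicate. Without a replicate, the log2 change of Gata4 ran from -0.13 to 0.42 for Chaf1a siRNA, -0.18 to 0.37 for si308 and -0.35 to 0.20 for si309 against the Chaf1a group, -0.37 to 0.10 between the pools and -0.04 to 0.44 for si308 against the negative control. That of Sox17 for si308 against the negative control ran from -0.20 to 0.75. Against the Chaf1a group, that of Sparc for si308 ran from -0.09 to 0.01 and that of Gata6 for si309 from -0.25 to 0.30 (0.02 with the replicate block). That of Dab2 for si309 ran from -0.10 to 0.00 there. That of Lama1 between the pools ran from -0.07 to 0.03. Of the other recomputed values, 887 kept direction and side of the threshold, 30 lost a call and 1 gained one. Against 8 raised and 1 lowered by Chaf1a siRNA, 5 were raised when a mean of 1 CPM was required (6 genes tested) and 0 lowered when a 2-fold change was. Against 5 lowered by si308, 3 were with the mean of 1 CPM, 3 with DESeq2, 2 with the 2-fold rule, and 3 to 5 without a replicate. Against 2 lowered by si309, 0 were with the mean of 1 CPM, 1 with DESeq2 and 1 to 2 without a replicate. Against 2 higher with si309 than with si308, 0 were with the 2-fold rule and 0 to 2 without a replicate. Against 1 lowered with either pool relative to the negative control, 0 were with the 2-fold rule. Leaving out a replicate leaves 1 library in a group, which is then assumed to vary like the others.

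Over the 17977 genes tested, deviations of columns with the same number were barely correlated (-0.044 to 0.046). Such correlations cannot exclude a pairing that moved only some genes, and whether the columns were paired is not known. A replicate block changed no call of the 10 genes (8 raised and 1 lowered by Chaf1a siRNA) and gave 6565 raised and 5533 lowered of all genes.

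Over all genes, counts for si308 against the Chaf1a group (1782 raised, 2156 lowered) ran from 798 to 2051 and 1432 to 2419 without a replicate, with 1089 raised by DESeq2. Those for si309 (676 and 1269) ran from 196 to 905 and 695 to 1474, were 1198 and 1638 in a fit of these groups alone, and 419 were raised by DESeq2. Those between the pools (430 and 228) ran from 164 to 567 and 47 to 326, and 373 were lowered without the filter. The causes were not tested. Depth limits Sox7, Foxa2, Sox17 and Gata4 most, at 0 to 57 counts a library.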

Other observations

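Of 19 paralogs tested, 13 were raised and 1 lowered by Chaf1a siRNA (median log2 change 0.99, beside 0.05 over all genes, of which 36.7% were raised and 30.8% lowered), and 5 were not called. With the pools averaged and set against the Chaf1a group, a comparison chosen after seeing the data, Sox7 was higher by 1.09 (95% interval 0.22 to 1.97, adjusted p = 0.074) and did not pass the test. Sox7 had entered the test through the pool groups, where it was high.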
